A study of Mus musculus with 6 samples.

Results

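The interferon-stimulated effector genes are the antiviral proteins and nucleic acid sensors that cells switch on after they receive an interferon signal. A list of 37 such mouse genes was followed in megakaryocytes with a Gata-1 knock down and in wild-type megakaryocytes. A probe set, the group of probes on an array that reads one transcript, was counted as a member where the platform annotation names one of these genes and no other. This gave 56 of the 45101 probe sets on the array, for 34 of the 37 genes. Isg15 was read only by a probe set that names a second gene as well, and Oas1g and Ifi44 had no probe set in this annotation, so these 3 genes have no value here.

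The series held 6 arrays of total RNA, 3 of Gata-1 knock down megakaryocytes and 3 of wild-type megakaryocytes; each group has replicates lettered A to C. Both groups were grown in differentiation medium from progenitors of mouse fetal liver at embryonic day 13.5, and the megakaryocytes were then collected on a gradient of bovine serum albumin. Megakaryocytes are the large cells that shed platelets, and GATA1 is a zinc finger transcription factor that they need to mature. How the knock down was made is not given in the sources used here, nor is it stated that replicates are independent cultures or animals. The p-values therefore speak only to the variation among these 6 arrays, part or all of which may be technical.

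Type I interferons bind the receptor IFNAR1 and IFNAR2, whose kinases JAK1 and TYK2 pass the signal on by phosphorylation. It reaches the factor ISGF3, of which STAT2 and IRF9 are subunits and which binds the interferon-stimulated response element (ISRE) in the promoters of effector genes. Many effector genes are also expressed at a low tonic level without infection, in blood cells among others. The effectors bind foreign RNA, cut it, block membrane fusion or modify proteins, and several sense viral RNA themselves.

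On these arrays Gata1 read 153.5, 143.3 and 194.7 in knock down A, B and C, against 8723.7, 8246.5 and 8495.6 in wild type A, B and C, which matched the labels. The 2%-trimmed mean signal was 500.0 on each array, as deposited. The highest signal among the bacterial control probe sets, used here as background, was 132 on knock down B and 60.7 to 82.2 on the other 5 arrays. The knock down median signal was also highest on B, at 137.8.

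Promoter sequences are shown for 6 members, chosen to span the largest falls (Ifit1, Ifit3), an antiviral enzyme gene (Rsad2), a sensor (Ddx58), a member that did not pass the test (Ifitm2) and the member whose probe sets were called in opposite directions with the widest gap (Xaf1). Each is a RefSeq window of 300 bases, 250 before and 50 after the gene's start, 5′ to 3′ on the gene's strand, with GRCm38.p6 coordinates. Capitals mark matches to the ISRE letters on either strand, taken as 2 copies of GAAA with any 2 bases between them.
Ifit1, chr19:34640639-34640938, plus strand: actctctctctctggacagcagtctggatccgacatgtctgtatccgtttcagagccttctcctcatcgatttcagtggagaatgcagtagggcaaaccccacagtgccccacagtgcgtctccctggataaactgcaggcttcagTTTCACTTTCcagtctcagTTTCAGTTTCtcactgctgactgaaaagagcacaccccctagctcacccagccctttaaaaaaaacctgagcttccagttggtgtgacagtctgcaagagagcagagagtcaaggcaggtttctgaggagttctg
Ifit3, chr19:34583279-34583578, plus strand: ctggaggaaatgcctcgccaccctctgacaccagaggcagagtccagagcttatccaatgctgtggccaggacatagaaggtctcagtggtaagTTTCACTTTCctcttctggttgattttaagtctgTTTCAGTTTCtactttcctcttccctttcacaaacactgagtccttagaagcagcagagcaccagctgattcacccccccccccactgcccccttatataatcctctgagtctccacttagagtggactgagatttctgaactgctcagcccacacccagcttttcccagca
Rsad2, chr12:26456403-26456702, minus strand: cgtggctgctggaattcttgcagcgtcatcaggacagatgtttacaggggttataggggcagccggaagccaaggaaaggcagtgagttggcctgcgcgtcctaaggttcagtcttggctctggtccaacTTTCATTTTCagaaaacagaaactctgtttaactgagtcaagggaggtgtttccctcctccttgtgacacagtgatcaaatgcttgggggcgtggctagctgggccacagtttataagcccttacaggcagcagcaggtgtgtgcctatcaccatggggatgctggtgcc
Ddx58, chr4:40239776-40240075, minus strand: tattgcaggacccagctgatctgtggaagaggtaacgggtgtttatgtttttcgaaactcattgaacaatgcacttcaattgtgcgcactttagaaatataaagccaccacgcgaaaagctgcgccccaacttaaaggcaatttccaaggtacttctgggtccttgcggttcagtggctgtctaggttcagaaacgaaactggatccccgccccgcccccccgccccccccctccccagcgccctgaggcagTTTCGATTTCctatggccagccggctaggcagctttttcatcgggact
Ifitm2, chr7:140955912-140956211, minus strand: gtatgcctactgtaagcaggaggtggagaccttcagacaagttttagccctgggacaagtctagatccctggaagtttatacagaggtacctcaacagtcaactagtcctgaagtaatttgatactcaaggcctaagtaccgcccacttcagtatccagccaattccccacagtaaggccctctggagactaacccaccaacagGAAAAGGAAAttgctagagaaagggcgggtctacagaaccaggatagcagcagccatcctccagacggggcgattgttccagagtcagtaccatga
Xaf1, chr11:72301379-72301678, plus strand: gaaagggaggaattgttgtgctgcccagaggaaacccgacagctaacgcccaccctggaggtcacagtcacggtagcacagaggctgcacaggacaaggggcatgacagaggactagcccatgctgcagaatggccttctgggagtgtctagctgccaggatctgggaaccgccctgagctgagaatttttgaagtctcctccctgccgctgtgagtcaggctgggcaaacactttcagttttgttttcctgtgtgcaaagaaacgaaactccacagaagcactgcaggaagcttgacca

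The effector genes were mostly lower in the knock down. Signals were compared as log2(signal + 32) after quantile normalization, with limma and Benjamini-Hochberg adjustment over all 31526 probe sets tested, and each gene was represented by its brightest probe set. All 34 genes passed the filter on dim probe sets, Mx2 only through wild type, so no member was lost there. Of these, 27 fell, 3 rose and 4 did not pass an adjusted p of 0.05, where 35.5% of all genes tested were called in either direction. The 27 that fell are 79.4% of the members, where 17.1% of the 14230 genes tested were lower, and the 3 that rose are 8.8%, where 18.3% of all genes were higher. At least 2-fold falls were seen for 11 members, 32.4% of them, against 5.14% of all genes, and an at least 2-fold rise for 1, Xaf1, against 2.07% of all genes. Of the 3 that rose, Xaf1 and Trim25 each had another probe set called lower, and only Ifi27 rose on all its probe sets. The median log2 fold change was -0.85 over the members and 0.03 over all genes tested. Centring arrays on their medians, in place of quantile normalization, shifted the median of all genes to -0.08. It left 2958 genes lower and 1190 higher, against 2439 and 2606 as reported, while 27 members were lower and 2 higher with a median of -1.05.

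The arrays of a group were close to each other. The median deviation of a member from its own mean over the 6 arrays, on the log2 scale, was -0.39, -0.39 and -0.45 in knock down A, B and C, against 0.38, 0.43 and 0.39 in wild type A, B and C. As deposited, 25 of the 27 genes that fell had all 3 knock down signals below all 3 wild-type signals, and the exceptions were Dhx58 and Zbp1. That ordering held for 20.4% of all genes tested, and the opposite one, seen for the 3 members that rose, for 29.1%. In bulk RNA of this kind, fewer cells of a type and less RNA per cell cannot be told apart.

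**Figure D1:**
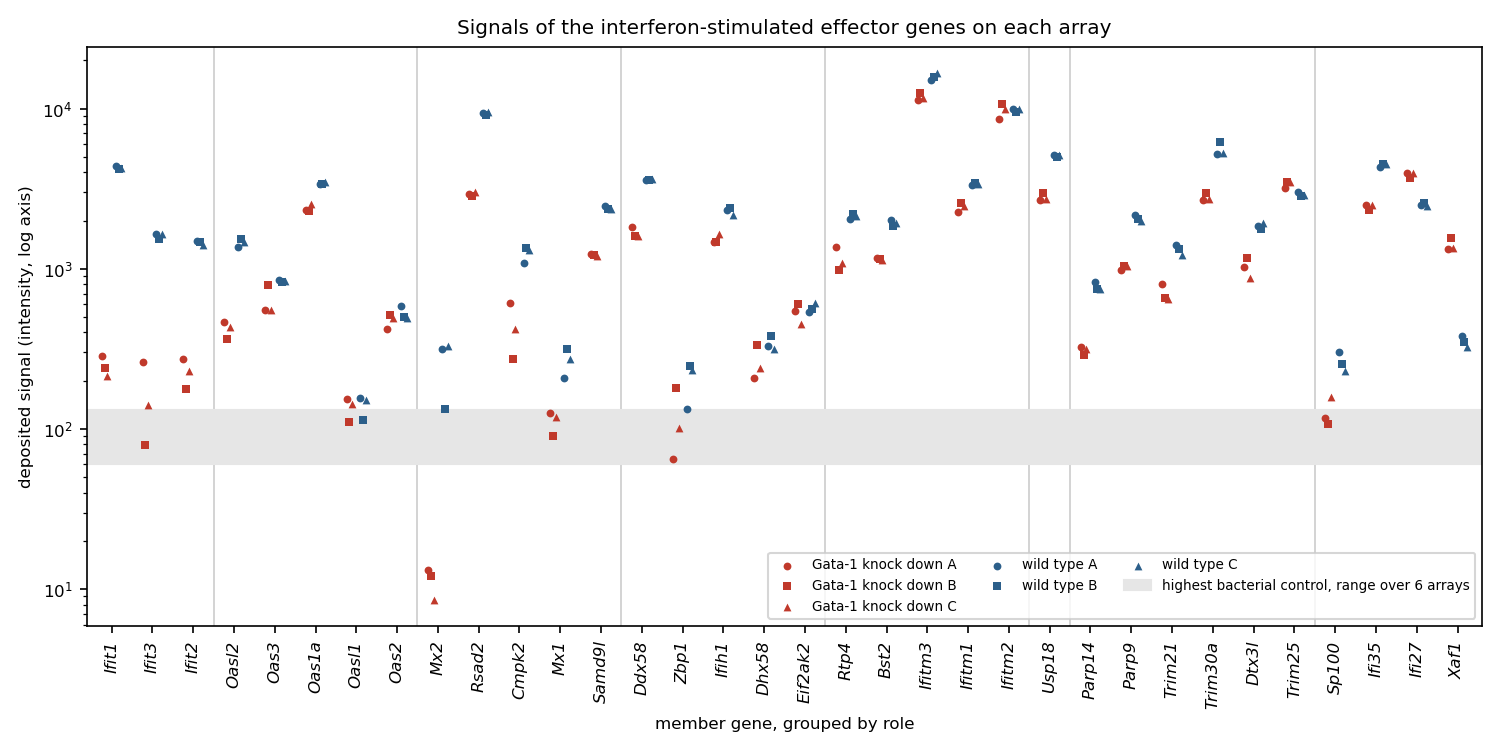
Deposited signal (log axis) of the brightest probe set of each of the 34 members on the 3 knock down arrays (red) and the 3 wild-type arrays (blue), grouped by role, with the range of the highest bacterial control signal in grey. The knock down points lie below the wild-type points for most genes, above them for Ifi27, Xaf1 and Trim25, and overlap with them for Oas2, Oasl1, Ifitm2, Eif2ak2, Dhx58 and Zbp1.

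The IFIT genes fell most as a family, with all 3 measured members lower and a median log2 fold change of -3.31. IFIT proteins bind viral RNA, and IFIT1 holds back translation of RNA whose cap lacks the host's methylation marks. Ifit1 read 284.8, 240.3 and 215.1 in knock down A, B and C, against 4376.1, 4204.8 and 4247.2 in wild type A, B and C. The groups were far apart, and the spread within each was small beside the gap. The log2 fold change was -4.00 ± 0.10 (SE), a 16.0-fold fall, with a limma adjusted p of 4.74e-09. Ifit3, whose protein works together with IFIT1, read 261.3, 79.1 and 142.0 in the knock down samples and 1653.8, 1541.0 and 1652.6 in wild type. Knock down B was lowest and lay below that array's highest bacterial control, while knock down A was the highest of the 3. Its log2 fold change was -3.31 ± 0.31 (SE; limma adjusted p 2.27e-05). Ifit2 read 271.7, 176.8 and 230.9 in the knock down samples and 1479.9, 1468.7 and 1410.7 in wild type. All 3 knock down values were again lower, by 6.21-fold (log2 fold change -2.64 ± 0.16, limma adjusted p 1.14e-06).

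OAS enzymes make a short oligoadenylate when they meet double-stranded RNA, and this activates the ribonuclease RNase L; OASL proteins are their relatives. Of the 5 measured genes 3 fell, 0 rose and 2 did not pass with limma, also with 0 rises at an unadjusted p of 0.05, and the family's median log2 fold change was -0.45. Oasl2 read 462.5, 364.5 and 429.9 in knock down A, B and C, against 1376.4, 1525.3 and 1470.7 in wild type A, B and C. The 2 groups did not overlap, and the fall was 3.45-fold (log2 fold change -1.79 ± 0.11, limma adjusted p 1.00e-06). Oas1a read 2339.2, 2282.4 and 2552.1 in the knock down samples and 3362.9, 3371.6 and 3505.3 in wild type. It fell 1.36-fold (log2 fold change -0.45 ± 0.06, limma adjusted p 0.000316). Oas3, the largest of the synthetases, read 551.0, 791.9 and 549.4 in the knock down samples and 856.5, 826.3 and 843.7 in wild type. Knock down B lay close under the wild-type samples, and the log2 fold change was -0.48 ± 0.14 (limma adjusted p 0.0274). Its call was lost with no intensity trend in the fit, and without knock down A or C or any 1 wild-type array, where log2 fold changes were -0.38 to -0.49.

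Oas2 and Oasl1 had log2 fold changes of -0.21 (95% interval -0.48 to 0.05) and -0.24 (-0.74 to 0.27), and limma adjusted p-values of 0.226 and 0.496. Signals of Oas2 were 419.0 to 515.7 in the knock down samples and 489.9 to 584.1 in wild type, so they overlapped. Oasl1 was dim in both groups, at 109.8 to 153.6 in the knock down samples and 113.3 to 155.2 in wild type. Oas1a has near-identical copies in the mouse, and its probe set may read more than one of them.

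The dynamin-like GTPases Mx1 and Mx2 and the nucleotide-linked effectors Rsad2, Cmpk2 and Samd9l all fell. Rsad2 encodes viperin, which makes an altered nucleotide that ends viral RNA chains. Rsad2 read 2933.3, 2842.7 and 3026.5 in knock down A, B and C, against 9383.7, 9081.8 and 9586.5 in wild type A, B and C. The fall was 3.03-fold with little spread (log2 fold change -1.60 ± 0.05, limma adjusted p 9.40e-09). Its other 2 probe sets gave log2 fold changes of -2.35 ± 0.10 and -1.92 ± 0.07. Cmpk2, a mitochondrial nucleotide kinase whose gene lies beside Rsad2, read 615.3, 274.6 and 422.1 in the knock down samples and 1087.1, 1347.0 and 1300.7 in wild type. Its knock down samples varied more than those of Rsad2, and its log2 fold change was -1.58 ± 0.23 (limma adjusted p 0.000501).

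Mx2 read 13.1, 12.0 and 8.6 in knock down A, B and C, against 316.0, 132.3 and 328.1 in wild type A, B and C. Every knock down signal was below the bacterial controls, so the change is a bound, and Mx2 was at least 2.39-fold lower (limma adjusted p 0.000113). Its probe set passed the filter on dim probe sets only through wild type, so this p-value is not taken as support. Mx1 read 125.4, 90.3 and 119.5 in the knock down samples and 206.9, 313.3 and 274.3 in wild type. Both Mx genes were dim, and the fall of Mx1 was 2.31-fold (log2 fold change -1.21 ± 0.22, limma adjusted p 0.00177). Samd9l, a growth-restraining antiviral factor of blood cells, fell by 0.93 ± 0.06 on the log2 scale, with signals of 1209.9 to 1242.3 in the knock down samples and 2348.3 to 2480.4 in wild type.

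Among the sensors, 4 of 5 fell and Eif2ak2 did not pass, and the median log2 fold change was -0.55. RIG-I (Ddx58) and MDA5 (Ifih1) are cytosolic helicases that detect viral RNA and signal through MAVS. Ddx58 read 1835.8, 1596.9 and 1613.1 in knock down A, B and C, against 3561.5, 3576.4 and 3633.9 in wild type A, B and C. The groups did not overlap, and the fall was 2.05-fold (log2 fold change -1.03 ± 0.07, limma adjusted p 1.66e-06). Ifih1 read 1471.2, 1473.4 and 1643.5 in the knock down samples and 2313.0, 2398.4 and 2162.6 in wild type. Its fall was smaller, at 1.46-fold (log2 fold change -0.55 ± 0.07, limma adjusted p 0.000294). The third helicase of the family, LGP2 (Dhx58), which tunes the others, read 208.9, 333.6 and 239.7 in the knock down samples and 329.3, 377.7 and 313.6 in wild type. Knock down B lay inside the wild-type range, and the log2 fold change of -0.48 ± 0.16 was just past the test (limma adjusted p 0.0496).

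ZBP1, a sensor of left-handed nucleic acid that can trigger cell death, was also close to the limit. Zbp1 read 64.7, 179.4 and 101.5 in knock down A, B and C, against 132.5, 245.9 and 233.5 in wild type A, B and C. The groups overlapped as deposited, and the log2 fold change was -0.87 ± 0.28 (limma adjusted p 0.0368). Both calls were lost with the values as deposited, with no filter on dim probe sets, with no intensity trend and without knock down A or C or wild type B or C. That of Dhx58 was also lost with an offset of 1, with signals floored at the controls and without wild type A. Over 16 alternatives the log2 fold change was -0.36 to -0.65 for Dhx58 and -0.63 to -1.13 for Zbp1. Eif2ak2 encodes PKR, the kinase that halts translation when it binds double-stranded RNA. It read 543.1, 603.9 and 451.6 in the knock down samples and 538.4, 562.0 and 608.5 in wild type, and these overlapped (log2 fold change -0.18, 95% interval -0.45 to 0.10, limma adjusted p 0.341). A second probe set of Eif2ak2 passed, at -0.30 ± 0.10 (limma adjusted p 0.0373).

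Most membrane-associated effectors fell. Tetherin (Bst2) ties budding virions to the cell surface, the IFITM proteins stop viruses from fusing with cell membranes, and RTP4 chaperones membrane receptors. Of the 5 genes 4 fell, with a median log2 fold change over the 5 of -0.55. Bst2 read 1170.7, 1155.2 and 1136.3 in knock down A, B and C, against 2014.4, 1851.3 and 1927.7 in wild type A, B and C. This fall was 1.63-fold, with no overlap between the groups (log2 fold change -0.71 ± 0.07, limma adjusted p 2.67e-05). Rtp4 fell by 0.87 ± 0.11 on the log2 scale, and its second probe set lay near background and did not pass.

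Of the 3 IFITM genes, 2 fell. Ifitm3, a major restriction factor for influenza virus, read 11337.0, 12500.5 and 11642.3 in knock down A, B and C, against 15049.9, 15773.6 and 16615.4 in wild type A, B and C. The groups did not overlap, and Ifitm3 fell 1.46-fold (log2 fold change -0.55 ± 0.06, limma adjusted p 3.99e-05). Ifitm1 fell by 0.41 ± 0.07 on the log2 scale (limma adjusted p 0.00121). Ifitm2 read 8606.9, 10744.8 and 9900.0 in the knock down samples and 9946.8, 9562.2 and 9965.7 in wild type. Knock down B was above and A below all wild-type samples, and the log2 fold change was 0.01, with a 95% interval of -0.12 to 0.13 (limma adjusted p 0.941). After median centring of the arrays, the log2 fold change of Ifitm2 was -0.21, with a limma adjusted p of 0.0632. The difference between the IFITM genes was not tested.

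Usp18 and the enzymes of ubiquitin and ADP-ribose transfer were lower with one exception. USP18 takes ISG15 off proteins and also blocks signalling at IFNAR2, so it is a feedback inhibitor of the interferon response. Usp18 read 2682.3, 2984.5 and 2713.5 in knock down A, B and C, against 5165.5, 4987.4 and 5142.8 in wild type A, B and C. This was a fall of 1.72-fold (log2 fold change -0.79 ± 0.06, limma adjusted p 7.87e-06). PARP9 and its partner DTX3L form an ADP-ribose and ubiquitin transferase complex, and PARP14 is a related transferase. On its brightest probe set Parp14 fell to 325.3, 290.0 and 316.5 in the knock down samples, against 822.1, 748.1 and 749.7 in wild type (log2 fold change -1.33 ± 0.11, limma adjusted p 8.38e-06), and its second probe set did not pass, at -0.60 ± 0.38. Parp9 and Dtx3l fell by 0.98 ± 0.07 and 0.84 ± 0.11 on the log2 scale. TRIM21, an antibody receptor inside cells, and TRIM30A, a mouse regulator of innate signalling, are ubiquitin ligases. Trim21 and Trim30a both fell by 0.91 on the log2 scale, with SE of 0.10 and 0.08, and for neither did the groups overlap.

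Trim25 rose on its brightest probe set, and its other probe sets went different ways. TRIM25 is a ubiquitin ligase of the RIG-I pathway. This probe set read 3176.9, 3477.0 and 3503.7 in knock down A, B and C, against 3006.9, 2839.9 and 2892.4 in wild type A, B and C. The groups lay close together without overlap (log2 fold change 0.28 ± 0.06, limma adjusted p 0.00709). After median centring the call was lost, and the log2 fold change of Trim25 was then 0.02, with a limma adjusted p of 0.913. A fit with no intensity trend lost it too, with a limma adjusted p of 0.0713. The second probe set did not pass, at 0.17 ± 0.08. The third read 624.4, 554.7 and 510.1 in the knock down samples and 1080.2, 1062.0 and 972.8 in wild type, and fell (log2 fold change -0.90 ± 0.10, limma adjusted p 6.05e-05).

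**Figure D2:**
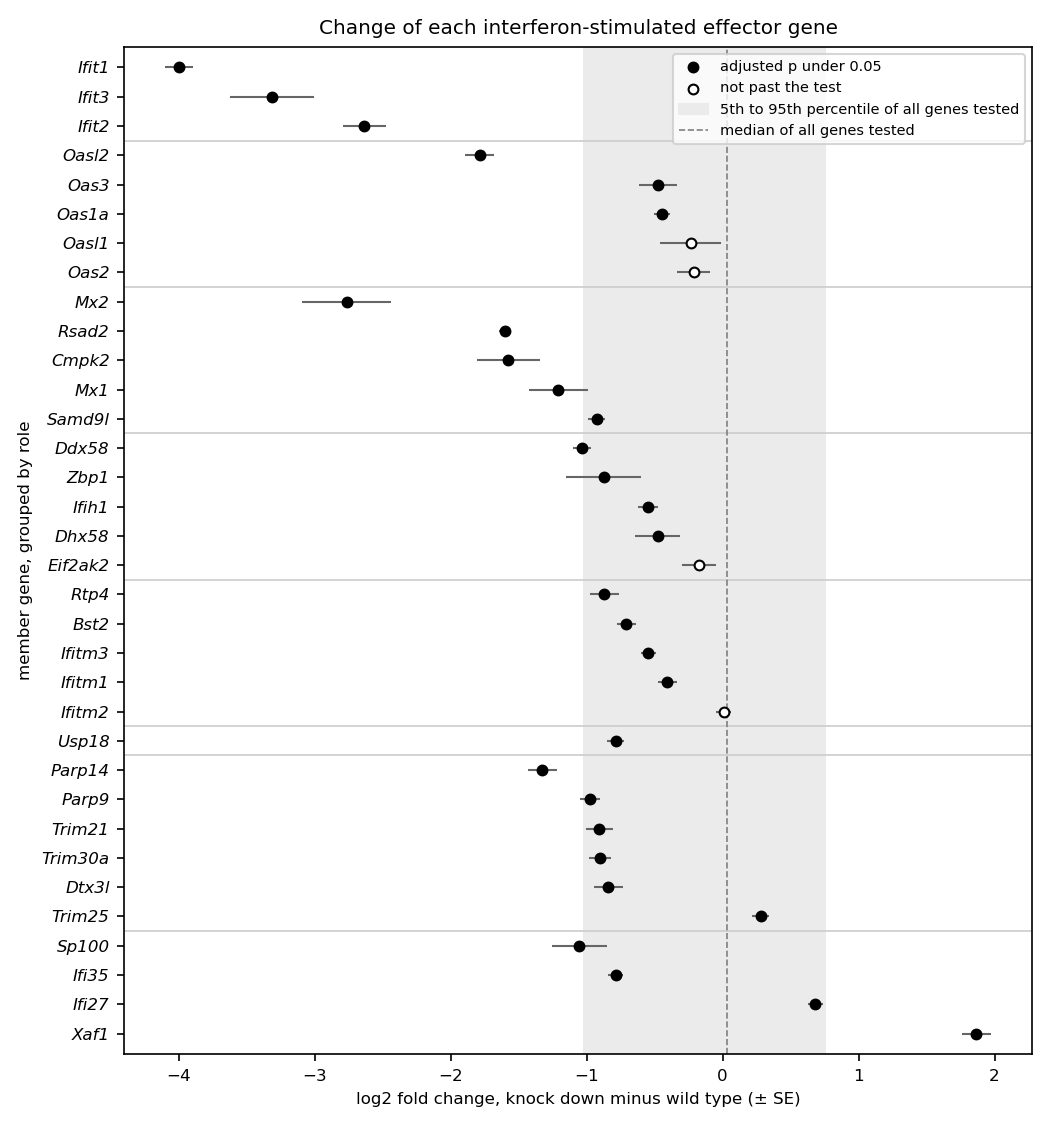
Log2 fold change, knock down minus wild type, with its SE from limma for each of the 34 members by role, filled where the adjusted p was under 0.05; the value of Mx2 is the fitted one, and its fall is a bound. Ifit1, at -4.00, lies farthest left and Xaf1, at 1.87, farthest right, and most other members lie below the median of all genes tested (dashed, 0.03), many inside the grey band from the 5th to the 95th percentile of all genes (-1.02 to 0.75).

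Of the other interferon-stimulated genes, Sp100 and Ifi35 fell and Ifi27 rose, and Xaf1 rose on its brightest probe set only. Ifi35, whose protein joins signalling complexes, fell by 0.79 ± 0.05 on the log2 scale, and all 3 of its probe sets passed. Sp100, a scaffold of nuclear bodies, fell by 1.05 ± 0.20 (limma adjusted p 0.00262), with signals of 106.6 to 158.2 in the knock down samples and 230.4 to 301.6 in wild type. Ifi27, a small mitochondrial membrane protein gene, read 3951.0, 3695.4 and 3952.9 in knock down A, B and C, against 2496.5, 2577.6 and 2451.2 in wild type A, B and C. All knock down samples were higher, by 1.60-fold (log2 fold change 0.68 ± 0.06, limma adjusted p 8.20e-06). Its second probe set rose as well, by 1.04 ± 0.09.

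Xaf1 gave the sharpest disagreement between probe sets of one member. XAF1 opposes the caspase inhibitor XIAP and promotes cell death. The brightest probe set read 1330.4, 1567.0 and 1354.1 in knock down A, B and C, against 382.8, 348.0 and 325.0 in wild type A, B and C. It was higher on every knock down array, by 3.65-fold (log2 fold change 1.87 ± 0.11, limma adjusted p 7.71e-07). The other probe set read 187.0, 190.8 and 297.0 in the knock down samples and 1805.6, 1844.8 and 1997.9 in wild type. It was lower on every knock down array (log2 fold change -2.99 ± 0.16, limma adjusted p 5.93e-07). Which transcript each probe set reads was not tested, and no direction can be given for Xaf1 as a gene: with the mean of its probe sets the log2 fold change was -0.56.

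Over all probe sets of the members the picture was the same. Of 55 tested, 41 fell, 4 rose and 10 did not pass, where 30.4% of all probe sets tested were called in either direction, 14.3% being lower and 16.1% higher. The members' shares were 74.5% and 7.3%. Of the 15 members with more than 1 tested probe set, 8 had all of them called in 1 direction, and Trim25 and Xaf1 had probe sets called in opposite directions. The probe set left out by the filter was a dim one of Zbp1. Among those that fell, that of Mx2 and a dim one of Dhx58 passed the filter only through wild type. Both were at or below the bacterial controls on all 3 knock down arrays.

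**Figure D3:**
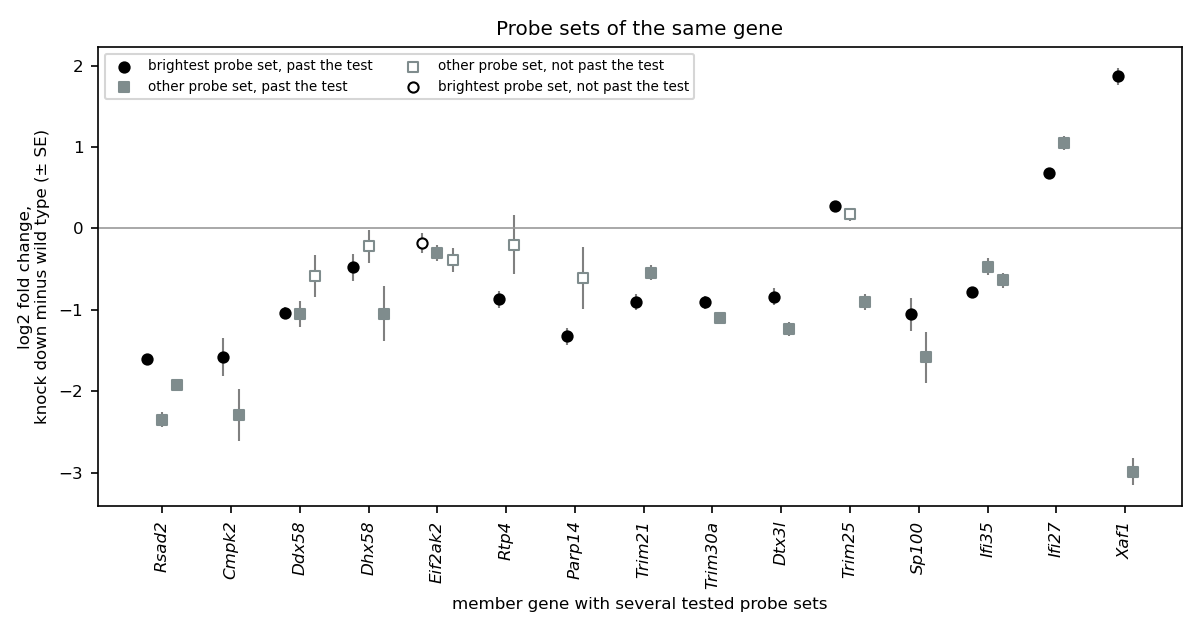
Log2 fold change, knock down minus wild type, with its SE for every tested probe set of the 15 members that have several, the brightest first (circle) and filled where it passed the test. The probe sets of Rsad2, Cmpk2, Trim21, Trim30a, Dtx3l, Sp100 and Ifi35 all lie below 0, those of Ifi27 above, and those of Xaf1 lie on opposite sides, at 1.87 and -2.99.

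The ISRE letters were more frequent in the promoters of the members than across the genome's promoters. Of the 27 members with a RefSeq window, 15 held the ISRE letters on either strand, 55.6%, against 3.99% of the 27025 genes with a window. Of these 15, 8 held at least 2 matches, but overlapping matches were counted separately. In Isg15, Oas1a, Oas1g, Bst2 and Trim21 neighbouring matches share a GAAA, and only in Ifit1, Ifit3 and Ifitm3 do they lie apart. The share among members that fell was 11 of 19, among those that did not pass 2 of 3, and among Xaf1 and Trim25, which rose on the brightest probe set but fell on another, 0 of 2. Of the promoters printed above, Ifit1 and Ifit3 carry the same pair of matches in the same order, upstream of the start. Ifit2, whose fall was among the largest, had no match in these windows, and Ifitm2, which did not pass, had 1. The letters TTCNNNGAA of the interferon gamma-activated sequence (GAS), on either strand, were found in 6 members, 22.2%, against 9.55% of all genes. The ISRE and GAS letters occurred together in 4 member windows and overlapped in 2 of these. The GATA letters AGATAA, on either strand, were found in Oas3 and Oasl2, 7.41% of the members, against 12.7% of all genes. A match is a description of these windows and not evidence of binding.

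**Figure D4:**
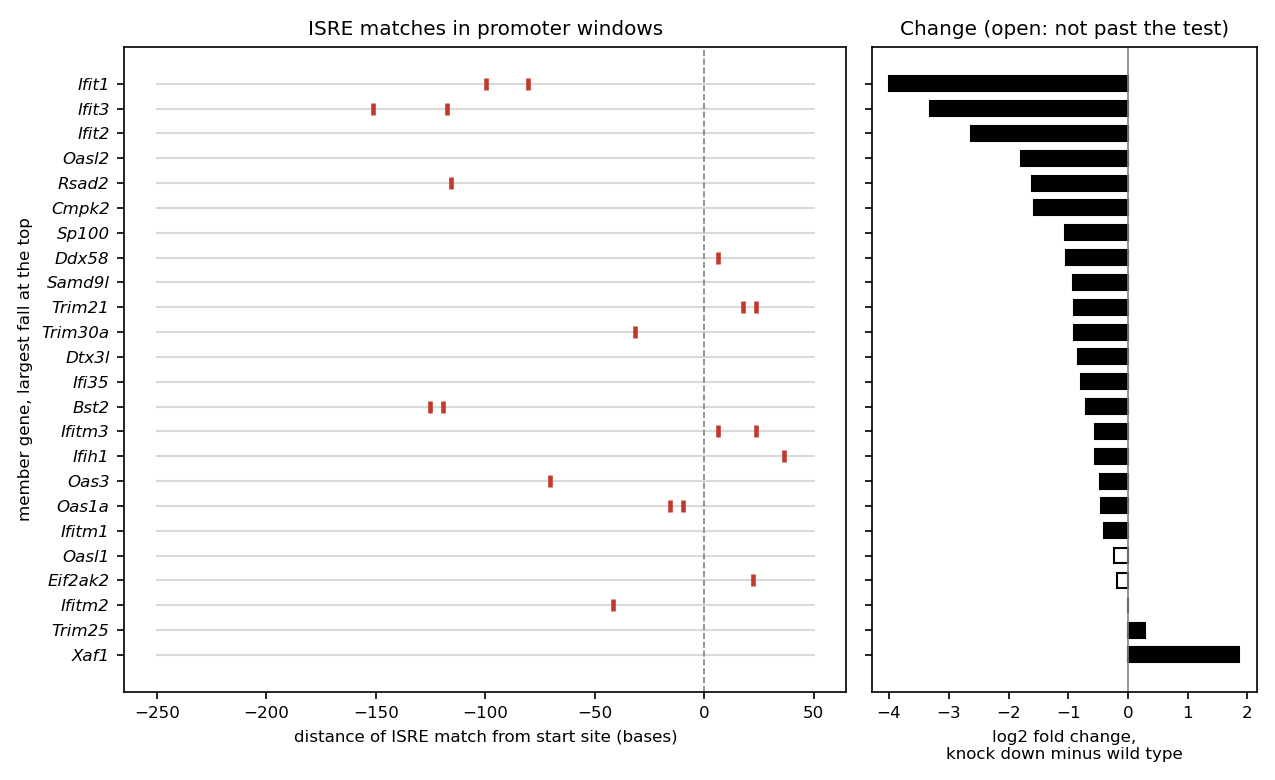
Left, distance in bases of each ISRE match from the gene's start in the windows of the 24 members that have both a window and a signal (the first window for genes with several), ordered by log2 fold change; right, that log2 fold change, knock down minus wild type. The 19 matches, overlapping ones counted separately, lie between positions -151.5 and 36.5 from the start. Matches occur both in genes with large falls and in genes that did not pass the test.

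Upstream genes of the pathway were followed in 5 lists, with the interferons themselves first. Their counts stand beside 17.1% of all genes tested that were lower and 18.3% that were higher. Of 19 ligand genes 10 had a probe set, and 8 of these lay at or below the bacterial controls on all 6 arrays. Only Ifnb1, Ifnz and Ifna11 passed the filter, and with limma 0 were called in either direction, also 0 at an unadjusted p of 0.05. Ifnb1 averaged 148 in the knock down samples and 114 in wild type (log2 fold change 0.12 ± 0.18, limma adjusted p 0.701), and Ifnz had -0.10 ± 0.21. Ifna11 was at or below the controls on all 6 arrays, so no change is given for it.

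Of 9 receptor and kinase genes tested, 5 fell, 1 rose and 3 did not pass, with a median log2 fold change of -0.48. The chains of the type I receptor, Ifnar1 and Ifnar2, fell by 0.49 ± 0.12 and 0.48 ± 0.12 on the log2 scale, with limma adjusted p-values of 0.0125 and 0.00946. The call of Ifnar1 was lost without wild type A or B and with the mean of its probe sets, and that of Ifnar2 with no intensity trend. Ifngr2, of the interferon gamma receptor, fell by 1.63 ± 0.24 and the shared receptor chain Il10rb by 0.61 ± 0.08. Knock down B of Ifngr2 lay below the controls. The kinase Jak2 fell by 0.86 ± 0.08. Jak1 rose by 0.19 ± 0.05, but its log2 fold change was -0.09 after median centring, and its call was also lost with values as deposited and with no intensity trend. Tyk2 and Ifngr1 had log2 fold changes of -0.11 and -0.20 and did not pass, and Ifnlr1 was at or below the controls on 3 knock down and 2 wild-type arrays.

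The ISGF3 subunits and interferon regulatory factors that were measured were mostly lower as well. Of 9 tested, 7 fell, 2 did not pass and 0 rose with limma, although 1 (Irf3) was higher at an unadjusted p of 0.05, and the median log2 fold change was -0.73. The ISGF3 subunits Stat2 and Irf9 fell by 0.92 ± 0.11 and 0.68 ± 0.10 on the log2 scale. Irf7, the factor that amplifies interferon production and is itself interferon-induced, averaged 562 in the knock down samples and 1301 in wild type (log2 fold change -1.20 ± 0.09, limma adjusted p 6.39e-06). Irf8 and Irf5, prominent in myeloid cells, fell by 0.94 ± 0.14 and 0.73 ± 0.17, and Irf2 and Irf1 by 0.88 ± 0.14 and 0.58 ± 0.10. The call of Irf5 was lost with the mean of its probe sets. Irf3 had a log2 fold change of 0.16 and passed without knock down A, and Irf4 was at or below the controls on 2 knock down and 2 wild-type arrays.

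Genes of nucleic acid sensing went both ways. Of 18 tested, 9 fell, 2 rose and 7 did not pass, where 17.1% of all genes were lower and 18.3% higher. The median log2 fold change was -0.16. The adaptor Mavs, through which RIG-I and MDA5 signal, fell by 1.32 ± 0.08 on the log2 scale. The adaptor of cytosolic DNA sensing, Sting1, had a log2 fold change of -1.64 ± 0.33, with knock down A below the controls. The dNTP hydrolase Samhd1 fell by 1.62 ± 0.09 and the kinase Ikbke by 1.49 ± 0.25. Knock down B of Ikbke lay below the controls. Ifi204, a DNA-binding protein gene at or below the controls on 2 of 3 knock down arrays, was at least 2.65-fold lower. Smaller falls were those of the RNA editor Adar, 0.62 ± 0.08, the Toll-like receptor chaperone Unc93b1, 0.53 ± 0.09, and the adaptors Ticam1, 0.40 ± 0.09, and Myd88, 0.27 ± 0.08, whose call was lost without any 1 wild-type array and with no intensity trend. The ribonuclease H2 subunits Rnaseh2a and Rnaseh2c both rose by 0.52, and the call of Rnaseh2c was lost after median centring. Irak1, Tbk1, Rnaseh2b and Tlr7 had log2 fold changes of 0.20, 0.13, 0.19 and 0.22 and did not pass. Without knock down A, 5 genes of this list rose in place of 2, Irak1, Tbk1 and Rnaseh2b being added.

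Negative regulators of interferon signalling were split. Of 15 tested, 6 fell, 5 rose and 4 did not pass, where 17.1% of all genes were lower and 18.3% higher. The median log2 fold change was 0.04. Socs3, an inhibitor of JAK kinases, averaged 230 in the knock down samples and 1193 in wild type (log2 fold change -2.33 ± 0.14, limma adjusted p 9.33e-07). Pias3, Nlrc5, Ptpn1, Tnfaip3 and Nlrx1 fell by 1.44, 1.04, 0.88, 0.76 and 0.69 on the log2 scale. Pias2, Cul1, Ptpn2, Irf2bp2 and Ptpn6 rose by 0.73, 0.73, 0.64, 0.60 and 0.50, and after median centring 3 of these passed, the calls of Ptpn6 and Irf2bp2 being lost. Ptpn11, Pias1, Pias4 and Otud5 had values between -0.07 and 0.14 and did not pass.

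Interferon-stimulated genes outside the members were also mostly lower. Of 47 tested, 33 fell, 0 rose with limma and 14 did not pass, where 17.1% of all genes tested were lower and 18.3% higher. At an unadjusted p of 0.05 limma gave 0 rises as well, and the median log2 fold change was -0.85. Slfn8 and Ccl5, both among the 33, passed the filter on dim probe sets only through wild type. Both were at or below the bacterial controls on all 3 knock down arrays, and Ccl5 also on 1 wild-type array. The guanylate-binding protein gene Gbp2 averaged 148 in the knock down samples and 1763 in wild type (log2 fold change -3.41 ± 0.14, limma adjusted p 7.50e-08). Gbp3, at or below the controls on 2 of 3 knock down arrays, was at least 4.95-fold lower. The exonuclease Isg20 fell by 2.43 ± 0.06. The chemokine gene Cxcl10 had a log2 fold change of -2.26 ± 0.15, with knock down B below the controls. This list and the members were chosen with earlier results of these data known, and some of its genes respond to interferon gamma as well as to type I interferon.

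**Figure D5:**
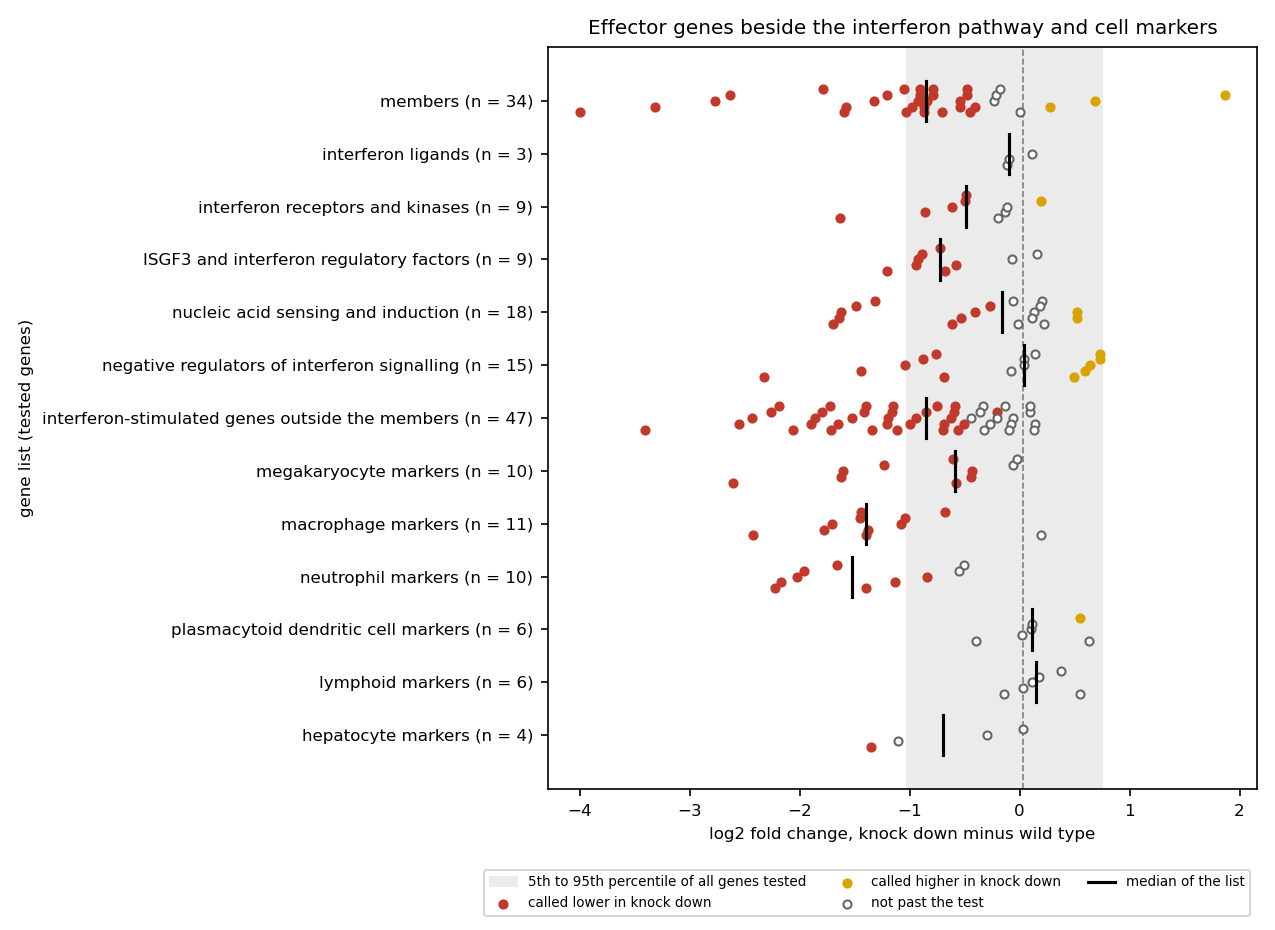
Log2 fold change, knock down minus wild type, of every tested gene in the members, the 6 interferon pathway lists and the cell marker lists (red, called lower; yellow, called higher; open, not past the test), with each list's median as a bar and the 5th to 95th percentile of all genes in grey. The medians of the members and of the other interferon-stimulated genes are both -0.85, those of macrophage and neutrophil markers are -1.40 and -1.53, and the negative regulators lie around 0.

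Markers of myeloid cells, which also express many effector genes, moved in the same direction. Of 11 tested macrophage markers 10 fell, where 17.1% of all genes tested were lower. The summed signal of all 15 with a probe set was 7777.1 to 7866.6 on the knock down arrays and 20501.6 to 21042.1 on the wild-type arrays. Csf1r and Cd68 averaged 2476 and 1678 in the knock down samples and 6939 and 3690 in wild type. Of the 15, Marco, Clec4f, Cd163 and Timd4 were at or below the bacterial controls on all 6 arrays, while Adgre1, Mrc1 and C1qb averaged 829, 482 and 719 in the knock down samples and 2311, 1594 and 1888 in wild type. Of 10 neutrophil markers 8 fell, against the same 17.1% of all genes. Their summed signal was 3122.5 to 3215.6 in the knock down samples and 11125.4 to 11565.7 in wild type. S100a9 and S100a8 averaged 760 and 859 in the knock down samples and 3659 and 3447 in wild type. The summed signal of the 34 members was 58121.7 to 61397.6 in the knock down samples and 93744.3 to 95264.4 in wild type. The part of myeloid cells in the falls of the effector genes was not tested.

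Of 6 tested markers of plasmacytoid dendritic cells, the strongest interferon producers, 0 fell with limma, also 0 at an unadjusted p of 0.05, 1 rose (Cox6a2), and the defining Siglech was at or below the controls on all 6 arrays. Of the lymphoid markers 0 of 6 were called, also 0 lower at an unadjusted p of 0.05, and of 4 tested hepatocyte markers 1 fell, Afp, at 370 in the knock down samples and 913 in wild type. These counts stand beside 17.1% of all genes tested that were lower and 18.3% that were higher. Tcf4 and Klk1 of the plasmacytoid list had log2 fold changes of 0.10 and 0.63, Ms4a1 of the lymphoid list 0.18 and Apoa2 of the hepatocyte list 0.03, and none of these passed. Cd3e was at or below the controls on 3 knock down and 2 wild-type arrays. The megakaryocyte markers Itga2b and Pf4 averaged 22760 and 19980 in the knock down samples and 18480 and 17120 in wild type, as deposited. These markers of the labelled cell type were thus present on all arrays. After normalization their log2 fold changes were -0.025 and -0.056, and neither passed. Of 10 tested megakaryocyte markers the other 8 fell, against 17.1% of all genes, with a median log2 fold change of -0.59 over the 10. Falls of at least 2-fold were seen for 4, Tubb1, Gp6, Vwf and Gp1bb, against 5.14% of all genes.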

How the data were processed

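Gene expression was read on 1 array for each of 6 samples, 3 knock down and 3 wild type, grouped by their titles. The values deposited by the authors are probe set intensity signals on a linear scale, with equal trimmed means on all arrays, which shows a common scaling. The software behind them is not given in the sources used here. Tests ran on log2(signal + 32). The array medians spanned 0.346 on that scale, and the arrays were quantile normalized, which removes any shift common to all genes. Fold changes carry the offset, which understates those of dim genes, while signals and their ranges are as deposited.

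The 64 control probe sets and probe sets below the 30th percentile of mean log2 value were left out. Groups were compared with limma 3.58.1 in R 4.3.3 (lmFit, then eBayes with a trend on intensity, two-sided, in a model of group alone). Benjamini-Hochberg adjustment ran over 31526 probe sets at 0.05. On simulated arrays the test recovered 22.5% of log2 changes of 0.5, 44.7% of those of 1 and 92% of those of 2. Smaller changes can thus be missed, and a gene that did not pass is not shown to be unchanged. Precision is limited by the number of arrays. Of the probe sets, 34945 carried 1 gene in the platform annotation, 932 several and 9160 none, and symbols were updated through a GRCm38.p6 gene table. A signal counted as background at or below the highest of 27 bacterial control probe sets of its array. A gene there on at least 2 arrays of a group has a bound, written "at least", which divides the mean of the brighter group by a floor, per array the larger of that control and the gene's own value.

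Every member is named. From the pathway lists the called genes were named, with up to 4 uncalled ones of the highest mean, except that only the largest 4 falls of the other interferon-stimulated genes were, and of marker lists the 2 brightest in wild type. Other marker genes and other interferon-stimulated genes named, at background or called, were chosen after their values were seen. The members and lists were chosen with earlier results of these data known. Replicate letters were not shown to pair the samples: the correlations of same-letter deviations from the group means were -0.04, -0.02 and -0.01. Such correlations cannot settle whether samples were paired by design. Alternatives were other offsets, scalings and filters, no intensity trend, a replicate block, a floor at the bacterial controls, the mean of a gene's probe sets and leaving out each array.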

Additional observations from a re-analysis of the deposited data

How the results depend on the processing

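Of the 34 members, 28 kept the same outcome (fall, rise or not past the test) under all 16 alternatives (15 for Mx2, which the filter at the 50th percentile removes). The exceptions were Oas3, Dhx58, Zbp1, Xaf1, Trim25 and Eif2ak2. Ifitm2, not called in any of them, changed sign, with a lowest log2 fold change of -0.21. The number of members that fell was 24 to 29 over the alternatives, and 24 to 27 when 1 array was left out. The number that rose was 1 to 3, with 2 after median centring. It was 1 when each gene's probe sets were averaged, where Xaf1 had a log2 fold change of -0.56 and Trim25 of -0.15. Both thus reversed in sign, since their probe sets oppose each other. With averaged probe sets Eif2ak2 passed the test, as a fall. With the replicate block, which leaves fewer residual degrees of freedom, 27 members fell and 3 rose, and no member's call changed; the letters were not shown to pair the samples. Arrays centred on their medians moved the median of all genes from 0.033 to -0.078 and that of the members to -1.05, and cut the genes called higher from 2606 to 1190 over all genes and from 8 to 4 over the pathway lists, where Jak1 had -0.09; the cause beyond this shift was not tested. Among the pathway lists 55 to 62 genes fell, against 60 as reported, and 4 to 12 rose, with 8 to 12 when 1 array was left out. The log2 fold change of Gata1 was -5.79 to -5.07, and -5.67 to -5.42 when 1 array was left out. Signal over background limits Mx2, Ifi204 and Gbp3, given as bounds, the interferon genes, Ifnlr1 and Irf4. It also limits the members Ifit3, Mx1, Sp100, Oasl1 and Zbp1, each with 1 knock down array at or below the controls. Among the called genes of the pathway lists, Ifngr2, Sting1, Ikbke, Cxcl10, Ifitm6 and Slfn5 had 1 such knock down array as well. Oas1c, Ddx60, Slfn8 and Ccl5 of these lists, also counted as falls, were at or below the controls on all 3 knock down arrays.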
